A study of Mus musculus with 12 samples.

Results

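The 10 genes described here are the Notch receptors Notch1, Notch2, Notch3 and Notch4, the ligands Jag1 and Jag2, the transcriptional targets Hes1, Hey1 and Heyl, and Rbpj, the DNA-binding partner of the receptors. They were taken by symbol from a table of 55487 genes. Levels are in TPM, a unit scaled for gene length and for the total of each library. A TPM of at least 1 in 2 or more of the 12 libraries was reached by 15968 genes, and 9 of the 10 Notch genes were among them. Heyl was not and was therefore not tested. The libraries came from 3T3-L1, mouse fibroblasts that form adipocytes after induction with MDI medium (IBMX, dexamethasone and insulin). All cells carried a lentiviral hairpin and were selected with puromycin, either a scrambled control (shScram) or a hairpin against the m6A demethylase Fto (shFTO). Each line was collected as preadipocytes (Pre), at mitotic clonal expansion after induction (MCE), when growth-arrested cells divide again, and at the stage labelled mature adipocytes (Diff), with 2 libraries per line and stage. Which of the hairpins against Fto was used is not given in the sources used here, so an effect of that hairpin and one of lower Fto cannot be told apart. Nothing in the labels says that the replicates were separate cultures, and p-values then measure only the spread between these libraries.

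Notch receptors are single-pass membrane proteins that are cut when a Jagged or Delta ligand on a neighbouring cell pulls on them. The freed intracellular domain enters the nucleus, joins the DNA-binding protein RBPJ and switches on genes such as Hes1 and Hey1, whose products are themselves transcriptional repressors. In 3T3-L1 cells the pathway is known both as a brake on adipocyte formation and as something the cells need on the way there.

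The sequence before a start site is shown for a receptor, a ligand and the DNA-binding partner. RBPJ and the HES and HEY proteins bind short DNA words. These 3 genes differed between the lines at 1 or more stages, as did Notch1, Notch2 and Jag2, which had windows too, and are shown as examples. The RefSeq table on GRCm38.p6 held windows for 7 of the 10 genes. The stretch printed is the part outside annotated exons, which for Notch3 is the whole window of 250 bases. Each is written 5′ to 3′ on the gene's strand. The capitals mark matches on either strand to the RBPJ core TGGGAA, the N-box CACNAG or the class C site CACGNG, and both of the last may cover the same letters.
Notch3, chr17:32166891-32167140, minus strand: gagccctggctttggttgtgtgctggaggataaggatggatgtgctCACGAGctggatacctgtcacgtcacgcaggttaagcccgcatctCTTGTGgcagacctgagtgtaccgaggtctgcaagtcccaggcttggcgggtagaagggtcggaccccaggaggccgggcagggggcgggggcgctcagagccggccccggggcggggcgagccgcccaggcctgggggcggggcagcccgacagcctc
Jag1, chr2:137116645-137116770, minus strand: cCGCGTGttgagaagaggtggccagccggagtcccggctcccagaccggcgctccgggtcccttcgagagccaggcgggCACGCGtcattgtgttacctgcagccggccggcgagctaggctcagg
Rbpj, chr5:53590096-53590213, plus strand: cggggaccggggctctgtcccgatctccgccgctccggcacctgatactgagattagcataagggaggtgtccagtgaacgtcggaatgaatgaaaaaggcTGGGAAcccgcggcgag
Counted back from the start site, the Notch3 stretch held N-box matches at -204 and -159, the first of which is also a class C match. The Jag1 stretch held class C matches at -249 and -171, and the Rbpj stretch an RBPJ core match at -149. The Rbpj stretch lies inside the span of the gene, before an internal start site, and another Rbpj window is not shown. Of the other windows not shown, those of Notch1 and Notch2 held matches and those of Jag2 and Notch4 held none. Among 32851 promoter windows of 250 bases, 21.6% held the RBPJ core, 36.7% the N-box and 23.5% the class C site, so such matches are common and are given as a description.

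Fto was measured at 52.7 to 73.5 TPM in the 6 shScram libraries and at 5.51 to 7.47 TPM in the 6 shFTO libraries (mean log2 difference -3.09; exact permutation test within stages, two-sided p = 0.00926, the smallest that 216 arrangements allow). Replicate 1 of shScram at Diff is titled as control while its treatment entry names the knockdown; the title was followed, and its Fto level of 73.5 TPM lay with the control libraries. Replicate 1 of shScram at Pre stood apart from its partner, with a correlation of log2(TPM + 1) of 0.9388 against 0.9896 to 0.9934 for the other pairs, and with 14.5% of its TPM on mitochondrial genes against 4.58 to 9.17% in the other libraries. All 8 fibroblast markers (Col1a1, Pdgfra, Thy1 and others) reached 1 TPM in every library. The summed TPM of 8 adipocyte markers, among them Fabp4 and Adipoq, was 1524 and 1515 in shScram at Diff against 456 and 417 in shFTO at Diff. Adipoq, which encodes the adipocyte hormone adiponectin, was at 77.2 and 72.4 against 6.05 and 3.66 TPM there. Pparg, Fabp4, Cd36, Plin1 and Cidec were also lower in shFTO (adjusted p under 0.05 in limma). Lpl and Cebpa did not pass (log2 fold change -0.21 and 0.28). In both shFTO libraries of that stage 7 of the 8 markers reached 1 TPM. Most of these markers were thus lower in the shFTO libraries labelled mature adipocytes than in the controls, but not all. None of 7 endothelial markers reached 1 TPM in both libraries of any group, with sums of 0.420 to 2.03 TPM, and 6 macrophage markers summed to 1.62 to 10.98 TPM. In bulk RNA, fewer cells of a type and less RNA per cell cannot be told apart.

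The comparison of lines asks what a cell with little Fto expressed differently at each stage. In preadipocytes, Hes1, Notch3, Jag1 and Notch1 were all higher in shFTO, and no Notch gene was called lower. At MCE, Notch3 and Hes1 were again higher, while Jag1, Notch1 and Hey1 were lower. At Diff, Notch3, Jag2 and Rbpj were higher, and Notch2 and Hey1 were lower. The adipocyte marker sum was lower in shFTO at Diff, as given above, and also at MCE (376 and 374 against 266 and 274 TPM). At Pre it was higher in shFTO (192 and 133 against 268 and 300 TPM). Of the markers, Lpl alone was called there (log2 fold change 0.91; adjusted p = 0.0124 in limma), so the sum does not speak for the list. The markers did not all move alike. At MCE, Pparg, Fabp4, Cd36, Plin1 and Cidec were called lower in shFTO, and Lpl was called higher. The sum of the fibroblast markers at MCE was 11077 and 10554 in shScram against 7960 and 7527 TPM. Of these markers, S100a4, Vim and Fn1 were called lower in shFTO and Thy1 higher. The part of either sum in the differences at these stages was not tested. A gene was called when its adjusted p in limma was under 0.05. By that rule 4 of 10 Notch genes differed at Pre beside 28.2% of all genes tested. At MCE 5 of 10 differed beside 17.8%, and at Diff 5 of 10 beside 21.2%. The 10 include Heyl, which was not tested, here and in the counts below. Notch3, Jag2 and Hey1 passed the filter only through the line where each was high, so counts that hold them cannot be weighed against these shares. Each share of all genes rose when either shScram library at Pre was left out, so the shares depend on that pair. Fitted on the 4 Pre libraries alone, none of the calls at Pre passed (adjusted p from 0.115 to 0.269). Fold changes below are on the log2(TPM + 1) scale, which understates changes of genes with low TPM.

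**Figure D1:**
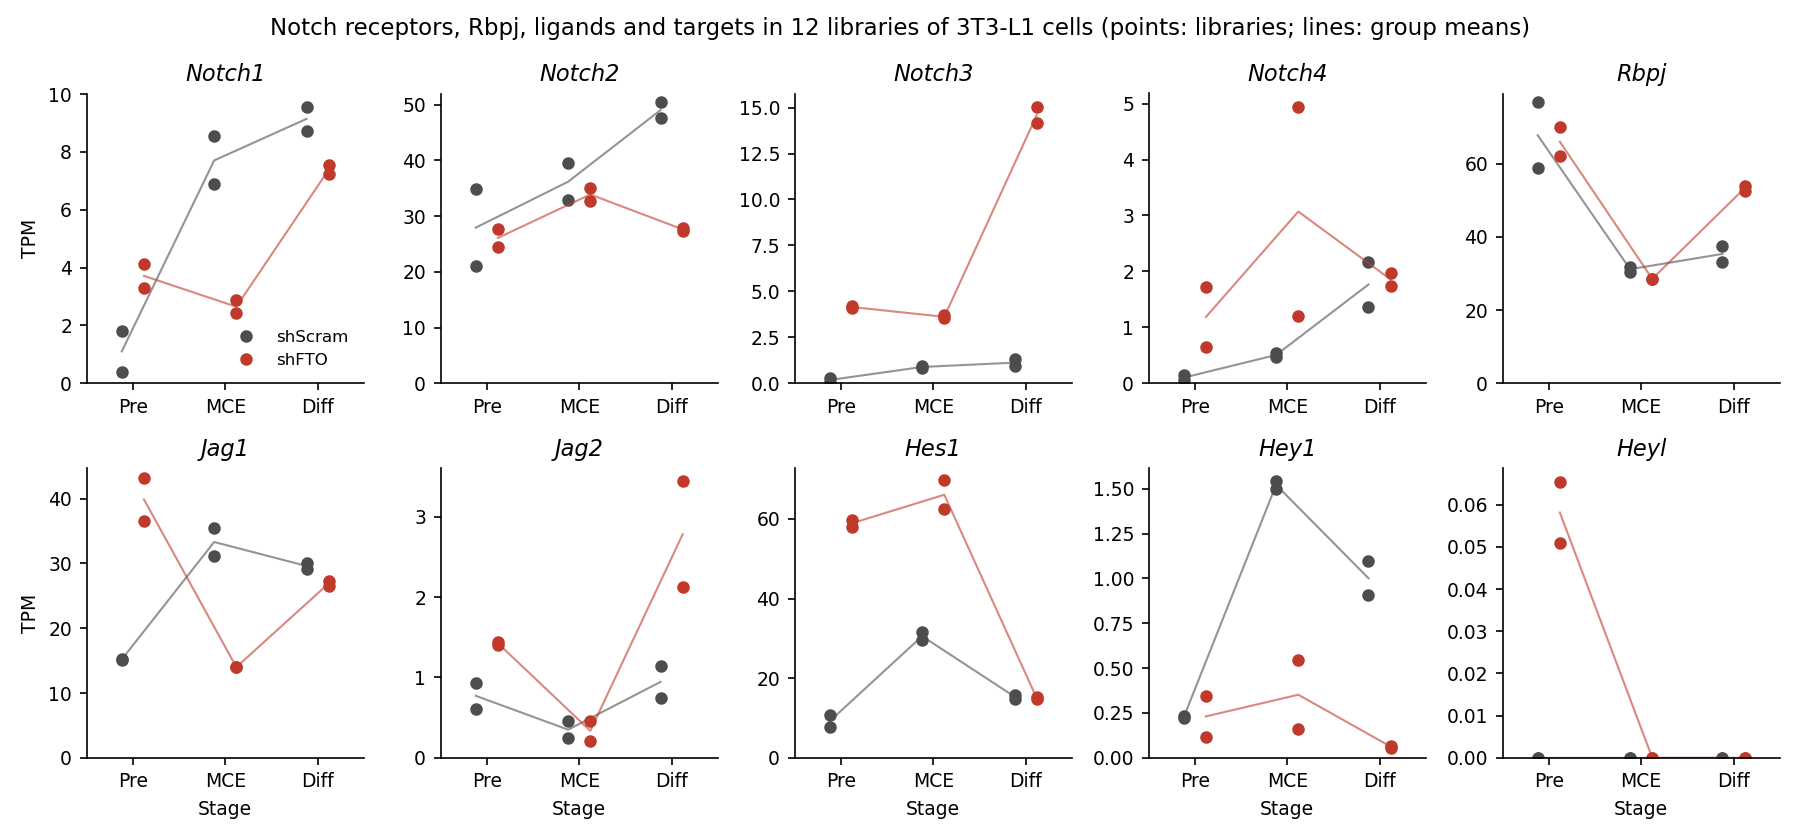
TPM of each of the 10 genes (vertical axes, linear, a separate scale for each gene) at the 3 stages (horizontal axes); points are libraries, grey for shScram and red for shFTO, and lines join the group means. Notch3 lay above shScram in every shFTO library at each stage and reached 14.1 and 15.0 TPM at Diff, while Hes1 was at 58.1 to 69.6 TPM in shFTO before Diff.

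Notch3, a receptor best known from vascular smooth muscle and pericytes, was the only one of the 10 genes called in the same direction at all 3 stages. It lies at chr17:32120820-32166852 (minus strand; ENSMUSG00000038146). Its level in control cells was 0.0779 and 0.276 TPM at Pre, 0.852 and 0.918 at MCE, and 0.940 and 1.30 at Diff. In knockdown cells it was 4.08 and 4.21 TPM at Pre, 3.54 and 3.69 at MCE, and 14.1 and 15.0 at Diff. The lines did not overlap at any stage, and the lowest shFTO library exceeded the highest shScram library. On group means the difference was 23.4-fold at Pre, 4.08-fold at MCE and 13.0-fold at Diff. The fold at Pre depends on 1 low control library, since it was 15.0 without replicate 1 of shScram and 53.2 without replicate 2. Notch3 reached 1 TPM in 7 libraries, 6 of shFTO and 1 of shScram, so it was tested only because it was high in shFTO. With no filter on low values it was also called at each stage (adjusted p = 0.000641, 0.00375 and 7.09e-05). The log2 fold change was 2.13 (SE 0.16; adjusted p = 9.48e-05) at Pre, 1.29 (adjusted p = 0.000751) at MCE and 2.88 (adjusted p = 5.97e-06) at Diff. Without replicate 1 of shScram at Pre it was 2.01 at that stage (adjusted p = 6.62e-05), and the calls at MCE and Diff were kept in all 19 alternative fits. The gene overlaps the predicted gene Gm17276 on the opposite strand, so reads of that gene cannot be told apart unless the counting used strand.

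Smooth muscle and pericyte markers were, in sum, also higher in shFTO at each stage. The summed TPM of the 7 markers was 315 and 468 in shScram against 1161 and 1071 in shFTO at Pre, 13.9 and 11.4 against 195 and 173 at MCE, and 31.6 and 41.0 against 101 and 103 at Diff. In each group 2 or 3 of the 7 reached 1 TPM in both libraries. Acta2, Tagln and Des, which encode alpha smooth muscle actin, transgelin and desmin, made up nearly all of it. Acta2 and Tagln were called higher in shFTO at each stage. Des was called higher at Pre and MCE but not at Diff (log2 fold change 0.52). The other markers of the list, Cspg4 among them, were not tested. Myh11, Cnn1 and Rgs5, which mark the contractile and pericyte types more closely, stayed under 1 TPM in all 12 libraries, and Rgs5 was at 0 in 6 of them. Over the stages the courses differed: the sum was highest at Pre in both lines, while Notch3 was lowest at Pre in shScram and highest at Diff in both. The part of such cells in the Notch3 difference was not tested.

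Notch1, the most studied receptor of the family, differed between the lines in opposite directions at Pre and MCE. It lies at chr2:26457903-26516663 (minus strand; ENSMUSG00000026923) and overlaps 0610009E02Rik and Gm13568 on the other strand. Control libraries held 0.379 and 1.82 TPM at Pre, 8.53 and 6.87 at MCE, and 8.73 and 9.56 at Diff. Knockdown libraries held 3.30 and 4.13 TPM at Pre, 2.88 and 2.42 at MCE, and 7.23 and 7.54 at Diff. At none of the stages did the lines overlap. The log2 fold change was 1.25 (SE 0.29; adjusted p = 0.0169) at Pre, -1.25 (adjusted p = 0.0193) at MCE and -0.27 (95% interval -0.94 to 0.39) at Diff. The size at Pre rests on 1 library, since without replicate 1 of shScram the value was 0.73 (adjusted p = 0.0176), and without either shFTO library the call was lost (adjusted p = 0.0699 and 0.0924). The call at MCE was lost in each of 4 fits that left out a library of that stage, with adjusted p from 0.0637 to 0.123, and with a pseudocount of 0.1 (0.0822) or no filter on low values (0.0574).

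Notch2 carried most of the receptor RNA. It lies at chr3:98013527-98150361 (plus strand; ENSMUSG00000027878) and overlaps Gm42819 and Gm42820 on the same strand, so its reads may be shared with them. The shScram libraries had 21.03 and 34.8 TPM at Pre, 39.5 and 32.8 at MCE, and 50.5 and 47.5 at Diff. The shFTO libraries had 24.5 and 27.7 TPM at Pre, 35.0 and 32.7 at MCE, and 27.3 and 27.9 at Diff. The lines overlapped at Pre and MCE, with log2 fold changes of -0.05 (95% interval -0.53 to 0.42) and -0.09 (-0.56 to 0.39). At Diff both shFTO libraries were lower, at 56.3% of the control mean (log2 fold change -0.81, SE 0.21; adjusted p = 0.0251). This call was lost in each of 4 fits without a library of that stage, with adjusted p from 0.0966 to 0.126, and with no filter on low values (0.0511). At Pre, the fit without replicate 1 of shScram called Notch2 lower in shFTO (-0.41, adjusted p = 0.0346).

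Notch4, a receptor found mainly in endothelium, was low and variable. It lies at chr17:34564268-34588503 (plus strand; ENSMUSG00000015468), with Gm20462 on the other strand. Its level in shScram was 0.0512 and 0.150 TPM at Pre, 0.471 and 0.540 at MCE, and 1.36 and 2.17 at Diff. Its level in shFTO was 0.656 and 1.71 TPM at Pre, 4.94 and 1.20 at MCE, and 1.97 and 1.75 at Diff. The lines did not overlap at Pre and MCE, but the replicates of shFTO were far apart at both, and no difference passed (log2 fold change 0.95, adjusted p = 0.113 at Pre; 1.26, adjusted p = 0.0705 at MCE). Of 19 alternative fits, 3 called it at Pre and 3 at MCE, among them a pseudocount of 0.1 at Pre (2.59, adjusted p = 0.0251). At Diff the difference was 0.06 (95% interval -0.89 to 1.01).

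TPM is scaled for length, so the receptors can be set against each other. In shScram, Notch2 made up 93.9 to 97.6% of the summed TPM of the 4 receptors at Pre, 79.7 to 80.0% at MCE and 78.5 to 82.1% at Diff. In shFTO its share was 73.4 to 75.3% at Pre, 75.5 to 81.7% at MCE and 53.4 to 54.0% at Diff. Notch3 stood at 0.362 to 2.23% of the receptor TPM in shScram and at 7.62 to 12.6% in shFTO before Diff. At Diff it made up 27.9 and 28.8% in shFTO against 1.53 and 2.15% in shScram. In every shFTO library Notch3 stood above Notch1, and in every shScram library below it. The receptor sum itself was 61.5 and 60.6 TPM at Diff in shScram, against 50.7 and 52.2 TPM in shFTO. Notch2 was first in every library, and the order of the other receptors changed with line and stage.

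**Figure D2:**
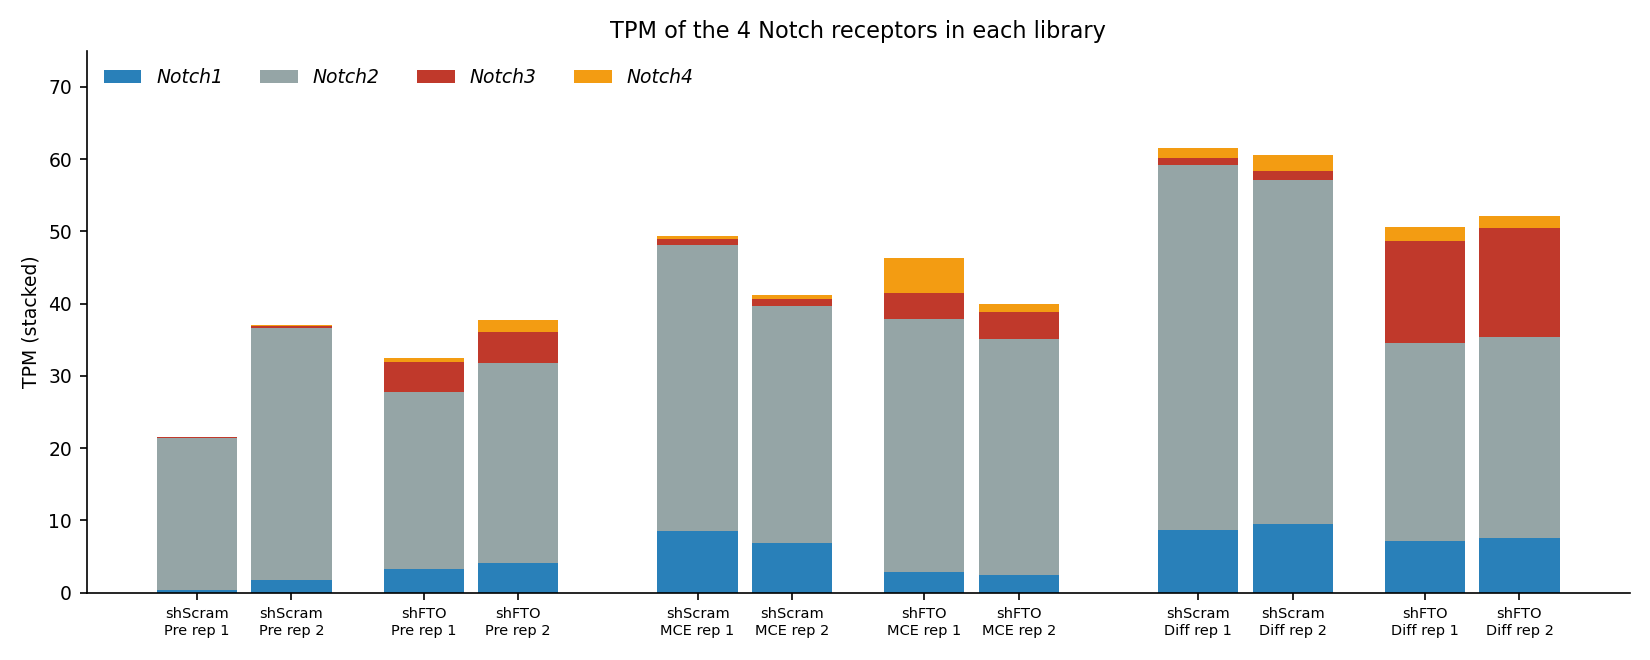
Stacked TPM of the 4 Notch receptors (vertical axis, linear from 0) in each of the 12 libraries (horizontal axis, grouped by stage and line); bar segments are the receptors. Notch2 is the main segment in every library, and the Notch3 segment is tallest in the shFTO Diff libraries, at 14.1 and 15.0 TPM.

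Rbpj, through which all 4 receptors act on DNA, was among the more abundant of the 10 genes. It lies at chr5:53466152-53657362 (plus strand; ENSMUSG00000039191), with Gm10441 and Gm40304 on the other strand. Control cells had 76.8 and 58.8 TPM at Pre, 31.9 and 30.5 at MCE, and 33.2 and 37.5 at Diff. Knockdown cells had 62.0 and 70.0 TPM at Pre, 28.5 and 28.6 at MCE, and 52.6 and 54.0 at Diff. Both lines were thus highest at Pre and lowest at MCE, and the shFTO line returned part of the way at Diff. The lines overlapped at Pre (log2 fold change -0.03, 95% interval -0.36 to 0.30), and at MCE the difference was -0.12 (adjusted p = 0.641). At Diff Rbpj was 1.51-fold higher in shFTO (log2 fold change 0.58, SE 0.14; adjusted p = 0.0209). That call was lost in each of 4 fits that left out a library of that stage, with adjusted p from 0.059 to 0.135.

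Jag1, a membrane-bound ligand of the receptors, was higher in shFTO before induction and lower at MCE. It lies at chr2:137081456-137116644 (minus strand; ENSMUSG00000027276) and overlaps no annotated gene. The control level was 15.3 and 15.1 TPM at Pre, 35.5 and 31.1 at MCE, and 30.1 and 29.2 at Diff. The level in shFTO was 36.5 and 43.3 TPM at Pre, 14.0 in both libraries at MCE, and 27.3 and 26.6 at Diff. The lines ran against each other, since control cells were lowest at Pre and shFTO cells lowest at MCE. The fold was 2.63 at Pre (log2 fold change 1.33, SE 0.13; adjusted p = 0.000300), and at MCE the shFTO mean was 42.0% of the control (-1.19, SE 0.13; adjusted p = 0.000329). At Diff the difference was -0.13 (95% interval -0.42 to 0.15). The MCE call was kept in all 20 alternative fits.

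Jag2, the second Jagged ligand, was far below Jag1, which made up 88.5 to 99.2% of the summed TPM of both. It lies at chr12:112907819-112929776 (minus strand; ENSMUSG00000002799), with Mir6941 inside its span. In control libraries it was at 0.612 and 0.932 TPM at Pre, 0.456 and 0.245 at MCE, and 1.15 and 0.743 at Diff. In shFTO libraries it was at 1.45 and 1.41 TPM at Pre, 0.458 and 0.214 at MCE, and 2.12 and 3.44 at Diff. The lines overlapped at MCE and not at Pre or Diff. Jag2 reached 1 TPM in 5 libraries, 4 of shFTO and 1 of shScram, so it too was tested only through shFTO. The difference was 0.46 (adjusted p = 0.139) at Pre and -0.02 (adjusted p = 0.977) at MCE. At Diff it was 0.94 (SE 0.22; adjusted p = 0.0163), and this call was lost without replicate 2 of shScram (0.79, adjusted p = 0.112) or of shFTO (0.69, adjusted p = 0.121), and with a pseudocount of 0.1 (1.45, adjusted p = 0.0575). With no filter on low values it was kept (adjusted p = 0.0347).

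Hes1, a basic helix-loop-helix repressor and the best known Notch target, showed the highest TPM of the targets. It lies at chr16:30064384-30067796 (plus strand; ENSMUSG00000022528) and overlaps no annotated gene. The TPM in shScram was 7.73 and 10.7 TPM at Pre, 31.6 and 29.5 at MCE, and 14.8 and 15.9 at Diff. The TPM in shFTO was 58.1 and 59.7 TPM at Pre, 62.5 and 69.6 at MCE, and 15.3 and 14.7 at Diff. The lines lay apart before Diff and overlapped there. The fold was 6.40 at Pre (log2 fold change 2.57, SE 0.15; adjusted p = 3.09e-05) and 2.16 at MCE (1.09, SE 0.15; adjusted p = 0.00150), and at Diff the difference was -0.03 (95% interval -0.37 to 0.31). Without replicate 1 of shScram at Pre the value at that stage was 2.36. At MCE the call was kept in all 20 alternative fits.

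Hey1, a related repressor that pairs with the HES proteins, was low, and lower in shFTO at the stages where it was called. It lies at chr3:8663359-8667256 (minus strand; ENSMUSG00000040289) and overlaps no annotated gene. Levels in shScram were 0.232 and 0.220 TPM at Pre, 1.5 and 1.54 at MCE, and 0.906 and 1.10 at Diff. Levels in shFTO were 0.118 and 0.344 TPM at Pre, 0.159 and 0.545 at MCE, and 0.0677 and 0.0574 at Diff. The lines overlapped at Pre and not later. The shFTO mean was 23.1% of the control at MCE (log2 fold change -0.91, SE 0.18; adjusted p = 0.00935) and 6.25% at Diff (-0.91; adjusted p = 0.00817). Hey1 reached 1 TPM in 3 libraries, all of shScram, so it was tested only because it was high there. With a pseudocount of 0.1, which understates such low genes less, the values were -1.99 (adjusted p = 0.0379) and -2.76 (adjusted p = 0.00941). The call at MCE was lost without either shScram library or replicate 1 of shFTO at that stage, with adjusted p from 0.0533 to 0.0865, and at Diff without replicate 2 of shScram (-0.84, adjusted p = 0.0561).

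Heyl, the third target, lies at chr4:123233556-123249875 (plus strand; ENSMUSG00000032744). It was listed at 0 in all shScram libraries and in shFTO at MCE and Diff, and at 0.0509 and 0.0654 TPM in shFTO at Pre.

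**Figure D3:**
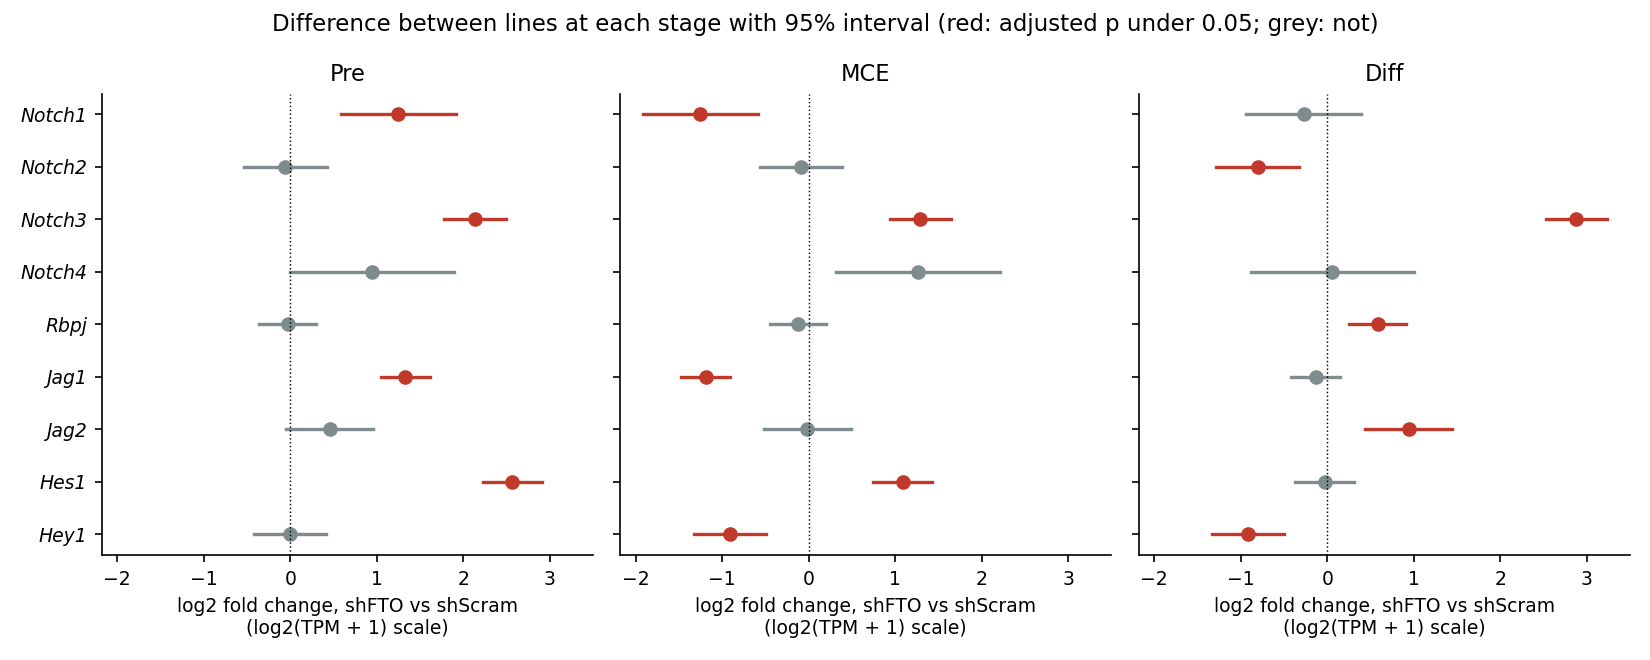
Difference between shFTO and shScram at each stage for the 9 tested genes (horizontal axes, log2 fold change on the log2(TPM + 1) scale); points are estimates from 2 libraries per group, bars are 95% intervals, and red marks an adjusted p under 0.05. Notch3 is to the right of 0 at all stages, Jag1 and Notch1 cross from right at Pre to left at MCE, and Hes1 moves from 2.57 at Pre to -0.03 at Diff.

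The steps between stages were compared within each line. As deposited, the median of all genes was itself shifted in these steps, by -0.168 (Pre to MCE) and 0.232 (MCE to Diff) in shScram and by -0.183 and 0.168 in shFTO on the log2 scale, and by at most 0.081 between lines. In control cells going from Pre to MCE, Notch1, Hes1, Jag1, Hey1 and Notch3 rose and Rbpj fell, so that 6 of 10 Notch genes were called beside 39.1% of all genes. Notch1 rose 7.0-fold (log2 fold change 2.13; adjusted p = 0.000735), which was 1.62 without replicate 1 of shScram at Pre. Hes1 rose 3.32-fold (1.64; adjusted p = 7.52e-05), Jag1 2.19-fold (1.08; adjusted p = 0.000272), Hey1 6.73-fold (1.04; adjusted p = 0.00270) and Notch3 5.0-fold (0.68; adjusted p = 0.00932). Notch3 was under 1 TPM in all 4 libraries of this step, and without replicate 1 of shScram at Pre its value was 0.56. Rbpj dropped to 46.0% (log2 fold change -1.08; adjusted p = 0.000612). Notch2 was not called with TPM as deposited, but was called higher under quantile normalization (0.52, adjusted p = 0.0313) and median-ratio scaling (0.60, adjusted p = 0.021), which made 7 genes. The call of Notch3 was lost without replicate 2 of shScram at MCE (0.66). A fit on the 4 libraries compared called none of the 10 (adjusted p of the 6 from 0.06 to 0.115).

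The same step in shFTO cells had another set of calls. Jag1 dropped to 35.1% (log2 fold change -1.44; adjusted p = 6.05e-05), Rbpj to 43.2% (-1.18; adjusted p = 0.000409) and Jag2 to 23.6% (-0.87; adjusted p = 0.0177), and 3 of 10 Notch genes were called beside 28.7% of all genes. None was called higher with TPM as deposited, whereas Notch2 was called higher under both other scalings (0.52 and 0.58) and Jag2 was then lost under quantile normalization (-0.52, adjusted p = 0.117), as it was without replicate 2 of shFTO at MCE or either shFTO library at Pre (adjusted p from 0.0788 to 0.125). Hes1 was already high before induction and changed by 0.16 (adjusted p = 0.482), and Notch3 by -0.16 (adjusted p = 0.512), a value whose sign turned under both other scalings (0.13 and 0.02).

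From MCE to Diff, 1 gene was called in control cells. Hes1 dropped to 50.3% (log2 fold change -0.95; adjusted p = 0.00270) and was the 1 gene of 10 called, beside 25.2% of all genes. Notch4 (0.471 and 0.540 against 1.36 and 2.17 TPM) had a log2 fold change of 0.86 (adjusted p = 0.165) and Jag2 one of 0.52 (adjusted p = 0.118), neither of which passed. Under another scaling a second gene was called lower, Jag1 under median-ratio scaling (-0.41, adjusted p = 0.0411) and Hey1 under quantile normalization (-0.79, adjusted p = 0.0256). In shFTO cells, 6 of 10 Notch genes were called in that step, beside 26.7% of all genes. Hes1 dropped to 22.7% (-2.06; adjusted p = 5.92e-05). Notch3 rose 4.03-fold (1.76; adjusted p = 0.000157), Jag2 8.28-fold (1.48; adjusted p = 0.00171), Jag1 1.92-fold (0.90; adjusted p = 0.00124), Rbpj 1.87-fold (0.88; adjusted p = 0.00273) and Notch1 2.79-fold (1.20; adjusted p = 0.0163). Under quantile normalization Hey1 was also called lower (-0.70), which made 5 genes higher and 2 lower, and the values of Jag2 and Notch1 were 0.95 and 0.77, both still called. The call of Notch1 was lost without any 1 of the 4 libraries of these stages, with adjusted p from 0.0636 to 0.102, and with a pseudocount of 0.1 (0.0724).

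Whether the difference between the lines changed from stage to stage was tested directly. From Pre to MCE it changed for Jag1, Notch1 and Hes1, all downward, so 3 of 10 Notch genes were called beside 5.11% of all genes. The change was -2.52 for Jag1 (SE 0.18; adjusted p = 0.000465), -2.50 for Notch1 (SE 0.42; adjusted p = 0.0125) and -1.48 for Hes1 (SE 0.21; adjusted p = 0.00624). Without replicate 1 of shScram at Pre the values were -2.53, -1.99 and -1.27. The share of all genes called rose when either shScram library at Pre was left out, here and from MCE to Diff. Neither share is therefore a firm background for the count of 3 of 10. The call of Notch1 was lost in 3 other fits that left out a library (adjusted p from 0.06 to 0.0665) and in a fit on the libraries compared (0.072). The change for Notch3, -0.84, was not called (adjusted p = 0.0679). From MCE to Diff it rose for Notch3 (1.59, SE 0.22; adjusted p = 0.00802) and Jag1 (1.06, SE 0.18; adjusted p = 0.0186) and fell for Hes1 (-1.12, SE 0.21; adjusted p = 0.0310), which is 3 of 10 beside 2.49% of all genes. These calls rest on few libraries. Without replicate 1 of shScram at Diff, the library with conflicting labels, Notch3 alone kept its call (1.47). Without replicate 1 of shFTO at MCE no Notch gene was called. The calls of Jag1 and Hes1 were lost in 7 and 10 of the 12 fits that left out a library, and that of Notch3 also with a pseudocount of 0.1 (1.69, adjusted p = 0.161). Both comparisons use the MCE libraries, so the values are not independent of each other.

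Beyond these 10 genes, a list of 49 other genes of the pathway was counted, of which 48 were in the table and 35 were tested. The Delta ligands Dll1, Dll3 and Dll4 stayed under 0.348 TPM in all libraries, and the targets Hes5 and Hey2 under 0.292 and 0.001 TPM. At Pre, 8 were higher and 3 lower in shFTO, which is 31.4% of the 35 beside 28.2% of all genes, with a median log2 fold change of 0.38 beside 0.081 over all genes. At MCE 2 were higher and 3 lower, 14.3% beside 17.8% (median 0.16 beside 0.050), and at Diff 2 were higher and 4 lower, 17.1% beside 21.2% (median 0.11 beside 0.032). These shares lay near the background at every stage. They depended on the shScram libraries at Pre, one of which stood apart from the other. Without replicate 1 there, 9 were higher and 3 lower at Pre (34.3% beside 29.0% of all genes), and without replicate 2, 16 were higher and 8 lower (68.6% beside 62.8%). Without either of them, 14 were higher and 4 lower at MCE (51.4% beside 41.0%), and 8 were higher and 5 lower at Diff (37.1% beside 45.7% without replicate 1 and 45.6% without replicate 2). By role, the calls at Pre were 3 of 8 co-activators and co-repressors, 2 of 7 gamma-secretase genes, 2 of 8 genes of receptor turnover, 2 of 2 of ligand endocytosis, 1 of 4 glycosyltransferases and 1 of 2 targets, and none of 2 S2 proteases or 2 ligands, numbers too small to set the roles apart.

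Most of the named genes of this list were called at Pre. Numbl, a relative of the Notch inhibitor Numb, was at 7.33 and 23.5 TPM in shScram against 52.1 and 51.6 TPM in shFTO (log2 fold change 1.89; adjusted p = 0.0106). Hes6, a HES protein that opposes HES1, was at 4.80 and 21.8 against 39.5 and 33.2 TPM (1.70; adjusted p = 0.0351). Pofut1, which puts the first fucose on the receptors, was at 10.8 and 25.8 against 41.7 and 43.2 TPM (1.29; adjusted p = 0.0173). For these genes the control value of replicate 1 was well under that of replicate 2. The same held for the ubiquitin ligase gene Mib2 (1.17; adjusted p = 0.0257) and for Dtx3 of the Deltex family (1.09; adjusted p = 0.0255), which were at 13.0 and 35.8 TPM in replicate 1 and 31.7 and 79.7 TPM in replicate 2. The sizes rest on that library. Without it the log2 fold changes were 1.11 for Numbl (adjusted p = 0.000109), 0.71 for Hes6 (0.0113), 0.70 for Pofut1 (0.00152), 0.57 for Mib2 (0.00373) and 0.52 for Dtx3 (0.0016), all called, and of these Numbl alone stayed over the size of 1 by which genes were named.

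At the later stages 3 genes were named. Dtx4, also a Deltex ubiquitin ligase, was at 12.7 and 14.2 TPM at Diff in shScram, against 47.4 and 46.8 TPM in shFTO (log2 fold change 1.74; adjusted p = 5.14e-05). Lfng, a glycosyltransferase that shifts the receptors' preference between ligands, was lower in shFTO both at MCE (1.87 and 1.66 against 0.444 and 0.284 TPM; -1.02, adjusted p = 0.00558) and at Diff (6.51 and 6.56 against 2.39 and 2.21 TPM; -1.19, adjusted p = 0.00215). Dlk1, a non-canonical ligand and the preadipocyte marker Pref-1, was at 1182 and 1106 TPM at MCE in shScram, against 484 and 431 TPM in shFTO (-1.32; adjusted p = 0.00357). Its direction at the other stages was the opposite, without a call. At Pre it was at 627 and 1072 against 1284 and 1272 TPM (0.64; adjusted p = 0.0556). At Diff it was at 888 and 822 against 899 and 909 TPM (0.08; adjusted p = 0.838).

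**Figure D4:**
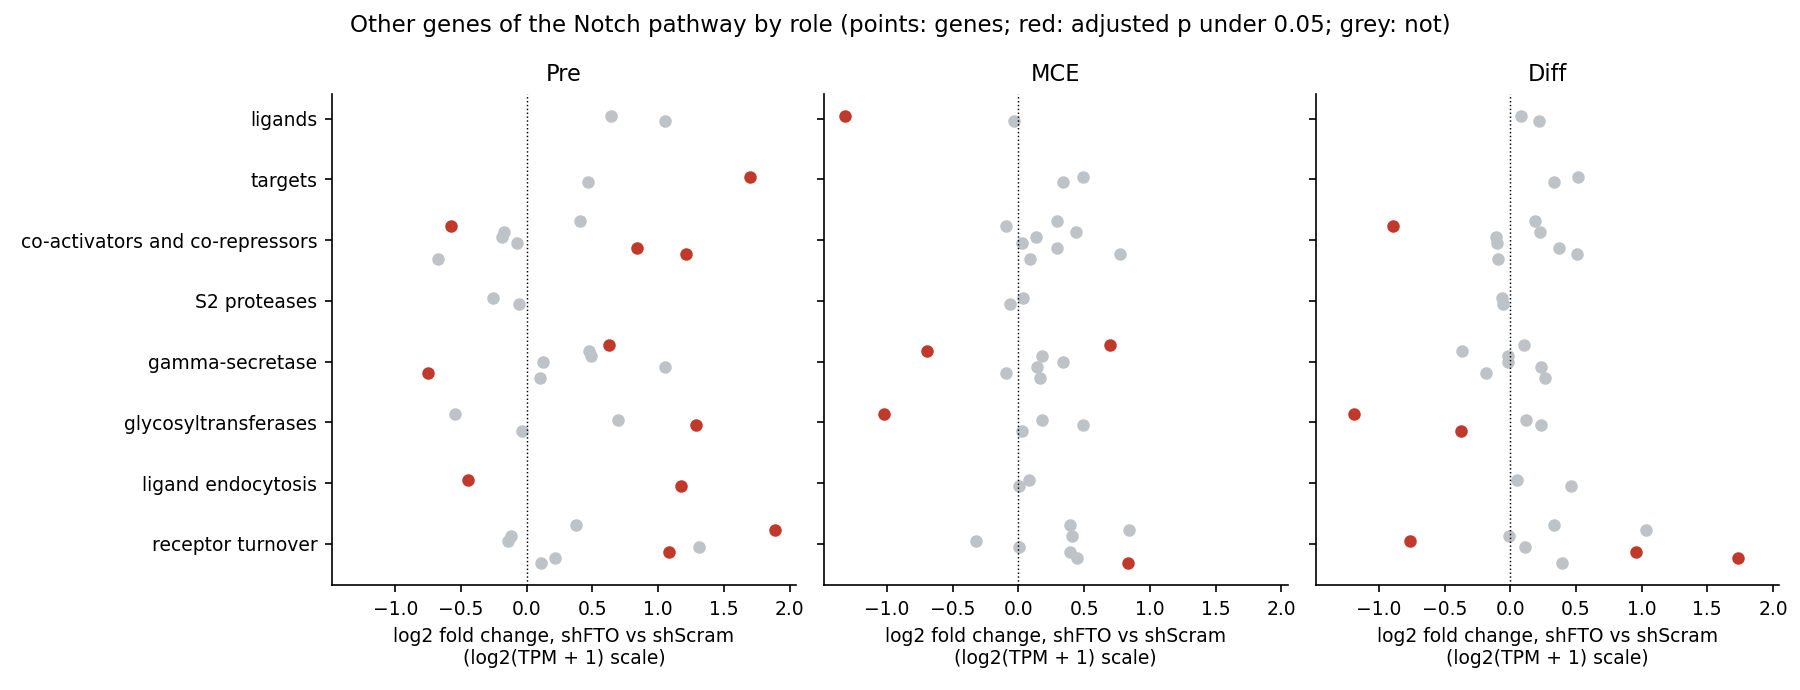
Difference between shFTO and shScram for the 35 tested genes of the wider pathway list (horizontal axes, log2 fold change on the log2(TPM + 1) scale), by role (vertical axis) and stage (panels); each point is a gene, red for an adjusted p under 0.05. Red points are most frequent at Pre (11 genes), and at Diff the rightmost is Dtx4 at 1.74 and the leftmost is Lfng at -1.19.

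Over the 12 libraries, the genes with a pattern most like that of Notch2 were Numa1 (Pearson r of log2(TPM + 1) 0.965), Snn (0.960) and Vasn (0.955). For Hes1 they were Eaf1 (0.961), Egr3 (0.950) and Smdt1 (0.950). These are descriptions over libraries that share stages and lines, with no test.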

How the data were processed

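RNA-seq of chemically fragmented total RNA from 3T3-L1 cells was analysed in 12 libraries (2 in each of 6 groups, assigned by their titles). Per the submitters' notes and the study's methods, adapters were removed with Trim Galore 0.6.5, HISAT2 2.1.0 gave the alignment to GRCm38, and StringTie 2.1.4 quantified Ensembl genes. The authors deposited TPM values, a unit scaled for gene length and library total. The authors' own test (DESeq2 1.30.1) needs counts, which were not used here. TPM holds no sequencing depth, so the depth of each library is unknown and no counting interval is given. Whether the counting used strand is not given in the sources used here. No library pair held identical values, and no column of the table was without a sample.

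From the TPM values, log2(TPM + 1) was computed for genes that reached a TPM of 1 in 2 libraries or more. Group means were fitted over all 12 libraries with limma 3.58.1 in R 4.3.3 (lmFit, eBayes with a trend, 6 residual degrees of freedom per gene before moderation), and 9 contrasts were tested, two-sided, with Benjamini-Hochberg adjustment over all genes tested. The groups share libraries between contrasts, so their results are not independent. The fit was tested on simulated data. Tables, promoters and plots were made with Python 3.11.15, numpy 2.4.6, pandas 2.3.3, scipy 1.17.1 and matplotlib 3.10.9. Coordinates are those of GENCODE M21 on GRCm38, in which 99.38% of the gene identifiers were found.

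The 10 genes, the wider pathway list and the marker lists were chosen with earlier results of these data known. Of the wider list, the genes named are the up to 12 with the largest absolute log2 fold change between lines at any stage, among those with an adjusted p under 0.05, an absolute log2 fold change of at least 1, a mean TPM of at least 2 and no overlap between the lines at that stage. A gene that meets this rule is not reported here. For the receptor and the target with the highest mean TPM, the 3 genes with the most alike pattern are named. The alternatives were a pseudocount of 0.1, no filter, a filter at a mean TPM of 5, quantile normalization, median-ratio scaling, a fit on the compared libraries only, eBayes without a trend, the replicate number as a block and each library left out.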

Additional observations from a re-analysis of the deposited data

Results flagged for a closer look

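The difference between the lines changed from one stage to the next for 4 of the Notch genes, by the test of that change itself (limma, adjusted over all genes tested). From Pre to MCE it fell for Jag1, with a change of -2.52 on the log2 scale (adjusted p = 0.000465), for Notch1, with -2.50 (adjusted p = 0.0125), and for Hes1, with -1.48 (adjusted p = 0.00624). These are 3 of 10 genes beside 5.11% of all genes. Both that share and the one for MCE to Diff rose when either shScram library at Pre was left out. For Jag1 and Notch1 both shFTO libraries lay above both control libraries at Pre and below both at MCE. For Hes1 they lay above at both stages, by less at MCE. From MCE to Diff the difference rose by 1.59 for Notch3 (adjusted p = 0.00802) and by 1.06 for Jag1 (adjusted p = 0.0186), and changed by -1.12 for Hes1 (adjusted p = 0.0310), 3 of 10 beside 2.49% of all genes. The calls of Jag1 and Hes1 in that step were lost in 7 and 10 of the 12 fits that left out a library. All groups hold 2 libraries, too few to ask whether a single library stands out within its group.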

How the results depend on the processing

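With 2 libraries per group and TPM values that keep no depth, the spread of each gene rests on 6 residual degrees of freedom. The libraries of shScram at Pre differed most. Leaving out either of them raised the number of calls between lines at MCE, in the shFTO steps and in the change from MCE to Diff. This held for the Notch genes and for all genes tested alike. In the other comparisons, among them lines at Diff and the change from Pre to MCE, the calls over all genes rose too. At Diff the number of Notch genes called stayed the same. The counts of Notch genes given below for other settings stand without the share of all genes called, so they do not set the Notch genes apart. Of the values of single Notch genes under settings other than leaving out a library, 566 kept direction and call, 16 gained a call, 20 lost one and 10 changed sign. On leaving out a library these were 876, 22, 49 and 25. None of the 13 results that changed sign there was called in the fit on all libraries. Notch2 between lines at Pre was called without replicate 1 of shScram at Pre (-0.41, adjusted p = 0.0346). The cause was not tested in any case.

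The number of Notch genes called between the lines at Pre was 0 in a fit on the compared libraries only (5 at an unadjusted p under 0.05), against 4. With a filter at a mean TPM of 5, which leaves fewer of the 10 genes, it was 3 at MCE and 2 at Diff, against 5 and 5. For the shScram step from Pre to MCE it was 0 in the fit on the compared libraries, against 6. For the shScram step from MCE to Diff it was 2 under quantile normalization, 2 under median-ratio scaling and 3 in the fit on the compared libraries, against 1. For the change of the difference from MCE to Diff it was 1 with a pseudocount of 0.1 and 6 in the fit on the compared libraries, against 3.

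On leaving out each library in turn the counts ran from 3 to 5 (lines at Pre), 3 to 6 (MCE), 1 to 5 (Diff, lowest without replicate 2 of shScram at Diff), 5 to 7 and 1 to 2 (shScram steps), 2 to 4 and 5 to 7 (shFTO steps), 2 to 5 (change from Pre to MCE) and 0 to 6 (change from MCE to Diff, 0 without replicate 1 of shFTO at MCE and 6 without either shScram library at Pre).

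The replicate numbers did not pair the libraries: the deviations of same-numbered libraries from their group means correlated at -0.290 to 0.172. With the replicate number as a block the counts were 4, 5, 5, 6, 1, 3, 6, 3 and 2 in the order above, and the 1 call lost was that of Hes1 from MCE to Diff (-1.12, adjusted p = 0.0518).

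Sign changes under other settings were these. Under quantile normalization, Jag2 between lines at MCE was 0.06, Notch1 and Notch3 in the shScram step from MCE to Diff were -0.06 and -0.28, Notch3 in the shFTO step from Pre to MCE was 0.13, and Notch2 in the change from Pre to MCE was 0.01. Under median-ratio scaling, Notch1 and Rbpj in the shScram step from MCE to Diff were -0.00 and -0.07, and Notch3 in the shFTO step from Pre to MCE was 0.02. With a pseudocount of 0.1, Notch4 in the change from Pre to MCE was -0.51 and Hey1 in that from MCE to Diff was -0.77.

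On leaving out a library, the difference between lines ran at Pre from -0.41 to 0.30 for Notch2, from -0.13 to 0.13 for Hey1 and from -0.22 to 0.16 for Rbpj. At MCE it ran from -0.22 to 0.04 for Notch2 and from -0.15 to 0.11 for Jag2, and at Diff from -0.15 to 0.27 for Notch4 and from -0.08 to 0.02 for Hes1. The shFTO step ran from -0.08 to 0.33 for Hey1 (Pre to MCE) and from -1.06 to 0.37 for Notch4 (MCE to Diff). The change from Pre to MCE ran from -0.38 to 0.32 for Notch2, from -0.40 to 1.03 for Notch4 and from -0.28 to 0.09 for Rbpj, and that from MCE to Diff from -0.21 to 0.21 for Hey1.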
